A study of Mus musculus with 4 samples.

Results

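The genes described here are 10 components of the Notch pathway, chosen by symbol from the 54532 genes of the deposited count table. They are 5 ligand genes (Dll1, Dll3, Dll4, Jag1 and Jag2), 3 receptor genes (Notch1, Notch2 and Notch3) and 2 target genes (Hes1 and Hey1), and each symbol matched 1 gene of the table. RNA came from thymic epithelial cells of C57BL/6 mice, either knockouts of SCD1, a desaturase that makes oleic acid, or littermate controls labelled WT. From each genotype, medullary cells (mTEC, Ly51− UEA1+) and cortical cells (cTEC, Ly51+ UEA1−) gave 1 library apiece, so the series has 4 libraries and no replicates. The sources used here do not state age, sex, the number of mice behind a library, the extent of the deletion, the cells it affects, or whether mTEC and cTEC of a genotype came from the same animals.

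Notch signalling passes between neighbouring cells. A Delta or Jagged ligand on a cell binds a Notch receptor on the next, proteases free the intracellular part of the receptor, and this part joins the DNA-binding protein RBPJ in the nucleus to switch on targets such as the Hes and Hey repressors. In the thymus, DLL4 on cortical epithelium is the ligand that commits incoming progenitors to the T cell lineage through NOTCH1, and Dll4 depends on the epithelial factor FOXN1. Epithelial cells also receive Notch signals themselves, and these help to set up the medullary lineage before they are dampened.

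With 1 library per group no difference has a replicate check and no p-value was computed. The 95% intervals below reflect counting error alone, and each comparison is between single libraries, not between conditions. Library totals ran from 15740383 to 18151725 reads, and a floor of 3 reads corresponds to 0.171 to 0.196 CPM (reads relative to TMM-scaled library size). Scd1 had 1310 reads in control and 278 in knockout mTEC, and 325 and 73 in cTEC. A gene was said to pass the size rule when it had at least 50 reads over a pair of libraries, a ratio of at least 2-fold and an interval excluding equality. By this rule 9 of 9 cTEC markers passed towards cTEC in both genotypes. Of 9 mTEC markers, 7 passed towards mTEC in both, and in knockout mice 1 passed towards cTEC. Markers of other cells were present in each library, with summed levels of 288 to 474 CPM for 14 thymocyte genes, 30.1 to 67.0 CPM for 11 endothelial genes, 433 to 531 CPM for 9 fibroblast and pericyte genes, 79.0 to 364 CPM for 11 myeloid genes and 4.58 to 25.5 CPM for 5 B cell genes, none of them at 0. Several of the Notch genes are known in thymocytes (Notch1, Notch3, Hes1) or in endothelium (Dll4, Jag1, Notch1, Hey1). In bulk RNA, fewer cells of a type and less RNA per cell cannot be told apart.

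Stretches upstream of 3 members are shown because these genes lay on opposite sides of the cortex and medulla comparison, Dll4 and Dll1 towards cTEC and Notch3 towards mTEC. Each is 250 bases ending at the base before the annotated start (RefSeq, GRCm38.p6), and none overlaps an annotated exon of these genes. Dll4 lies at chr2:119325534-119325783 on the plus strand, Dll1 at chr17:15376933-15377182 on the minus strand and Notch3 at chr17:32166891-32167140 on the minus strand. Capitals mark CACGCG, a sequence that Hes and Hey repressors are known to bind, on either strand.
Dll4: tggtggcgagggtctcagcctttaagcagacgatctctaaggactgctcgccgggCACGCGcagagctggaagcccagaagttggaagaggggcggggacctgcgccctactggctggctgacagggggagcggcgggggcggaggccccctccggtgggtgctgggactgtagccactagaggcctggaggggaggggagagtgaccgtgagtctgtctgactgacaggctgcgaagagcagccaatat
Dll1: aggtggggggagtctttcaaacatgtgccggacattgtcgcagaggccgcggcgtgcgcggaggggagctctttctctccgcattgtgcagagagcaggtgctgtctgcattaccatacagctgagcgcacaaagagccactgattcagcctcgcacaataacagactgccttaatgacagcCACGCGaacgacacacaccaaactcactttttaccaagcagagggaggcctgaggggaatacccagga
Notch3: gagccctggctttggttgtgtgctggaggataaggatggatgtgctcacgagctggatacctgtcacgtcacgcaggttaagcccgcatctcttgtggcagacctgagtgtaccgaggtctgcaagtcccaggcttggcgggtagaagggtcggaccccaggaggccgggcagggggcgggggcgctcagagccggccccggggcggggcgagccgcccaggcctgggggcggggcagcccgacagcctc

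The Dll4 and Dll1 stretches hold CACGCG once each and the Notch3 stretch does not. Their GC content is 65.6% for Dll4, 56.0% for Dll1 and 68.8% for Notch3. The RefSeq promoter windows (250 bases before to 50 after a start) covered 8 members with 9 windows, Dll1 having 2, and did not include Hes1 and Hey1. CACGCG was searched for after the windows had been read. It occurs in 5 of these 9 windows (Dll4, Dll1, Jag1, Jag2 and Notch2) and in 9.27% of all 32851 windows. GACGC, a core known for FOXN1, occurs in 5 of the 9 (Dll1, Dll3, Jag1, Jag2 and Notch1) and in 27.2% of all windows, and TGGGAA, the core bound by RBPJ, in 0 of the 9 and in 25.6% of all windows. Both strands were searched for each, and GACGC and CACGCG have the letters ACGC in common. A match is a description of the letters and not a binding site, and a missing match says only that these letters are not in the window.

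Levels of different genes were compared as CPM per kb of the deposited gene length, and the intervals do not cover any error in that length. On this scale Jag2, a ligand of the Jagged class, was the most abundant ligand gene in each library, at 26.5 and 25.6 in the control and knockout libraries of mTEC and 97.7 and 98.3 in those of cTEC. Jag1 was close to it in mTEC (24.9 and 22.4) but not in cTEC (27.4 and 23.0). In control mTEC their intervals overlap (25.6 to 27.5 for Jag2, 24.0 to 25.9 for Jag1), so the order of these genes there is uncertain. Dll1, a Delta ligand, stood at 14.4 and 13.0 CPM per kb in control and knockout mTEC and at 41.3 and 33.0 in cTEC, below Jag1 in mTEC and above it in cTEC. Dll4 stood at 9.14 and 10.003 in mTEC and 19.9 and 25.1 in cTEC. Dll3, a Delta-like protein that acts inside the cell as an inhibitor of Notch signalling, was the lowest member, at 4.76 and 5.57 CPM per kb in mTEC and 0.941 and 0.280 in cTEC. Within cTEC, the RNA of Jag2 exceeded that of Dll4, the T lineage ligand, 4.92-fold per length in the control and 3.91-fold in the knockout library.

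**Figure D1:**
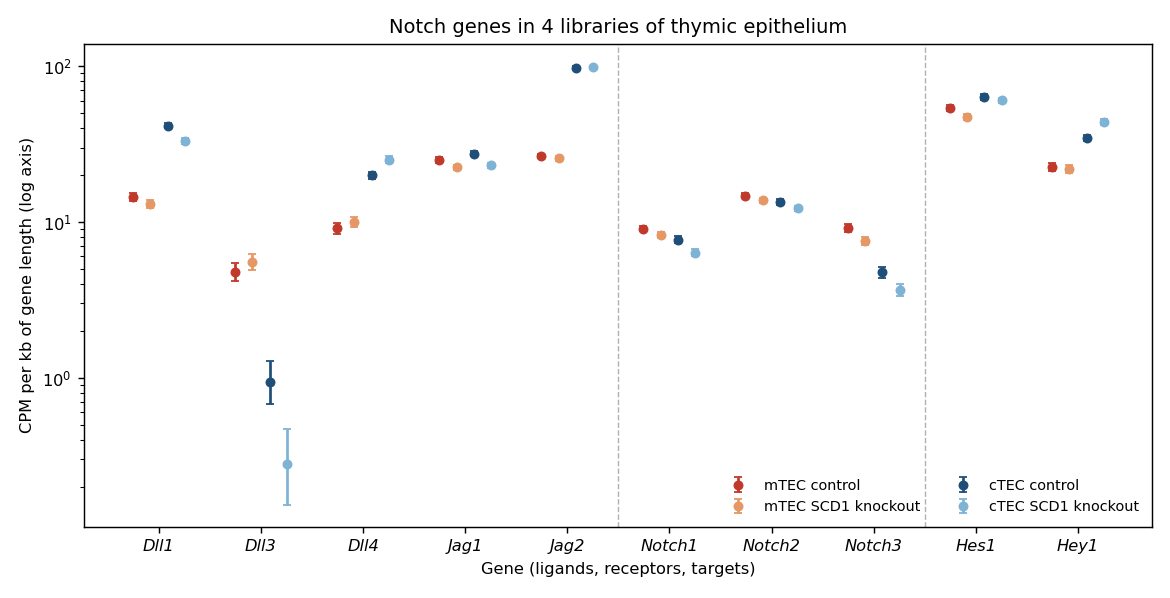
Level of each Notch gene in each library, in CPM per kb of gene length on a log axis. Points are single libraries and bars are exact 95% Poisson intervals. Jag2 at 97.7 and 98.3 in cTEC is the highest point among the ligands, and Dll3 in cTEC (0.941 and 0.280) lies lowest.

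Notch2 was the most abundant receptor gene, at 14.7 and 13.8 CPM per kb in control and knockout mTEC and 13.4 and 12.2 in cTEC, and Notch1 followed at 9.06 and 8.27 in mTEC and 7.69 and 6.34 in cTEC. Per length, Notch3 equalled Notch1 within counting error in control mTEC (9.13, interval 8.63 to 9.65, against 8.69 to 9.45 for Notch1). That parity depends on the deposited lengths, 14232 bases for Notch1 and 8044 for Notch3, with 2198 and 1252 reads. In cTEC Notch3 was lower, at 4.76 and 3.65, and Notch1 exceeded it there 1.62-fold and 1.74-fold. Both targets were abundant. Hes1, a repressor that many cell types express in response to Notch, stood at 53.5 and 47.1 CPM per kb in mTEC and 63.4 and 60.1 in cTEC, above Hey1, a related repressor, at 22.4 and 21.9 in mTEC and 34.6 and 43.8 in cTEC.

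The summed ligand RNA per length came to 79.8 and 76.5 CPM per kb in mTEC (control, then knockout) and to 187 and 180 in cTEC. The summed receptor RNA had the other order, 32.9 and 29.6 in mTEC and 25.9 and 22.2 in cTEC. The make-up of the ligand pool also differed between populations. In mTEC, Jag1 and Jag2 had nearly equal shares (31.2% and 33.2% in the control library, 29.2% and 33.4% in the knockout), and Dll3 contributed 5.96% and 7.28%. In cTEC, Jag2 alone made up 52.2% and 54.7%, Jag1 14.7% and 12.8%, and Dll3 0.503% and 0.156%. Dll4 made up 11.5% and 13.1% of ligand RNA in mTEC and 10.6% and 13.97% in cTEC, while Dll1 went from 22.1% in control to 18.4% in knockout cTEC. Among the receptors, Notch3 took 27.8% and 25.6% in mTEC and 18.4% and 16.4% in cTEC.

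**Figure D2:**
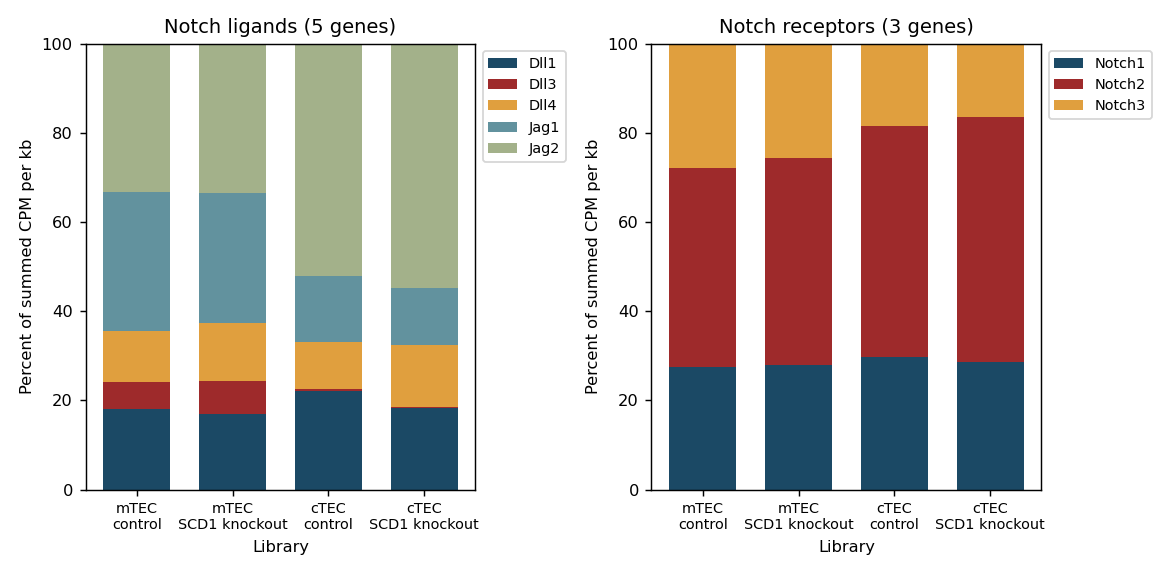
Make-up of the Notch ligand RNA (left, 5 genes) and Notch receptor RNA (right, 3 genes) in each library, as percent of the summed CPM per kb. Jag2 makes up 52.2% and 54.7% of ligand RNA in the cTEC libraries against 33.2% and 33.4% in the mTEC libraries.

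The comparison of mTEC with cTEC asked which Notch genes differ between medulla and cortex. Ligands Jag2, Dll1 and Dll4 were lower in mTEC in both genotypes, Dll3 was higher in mTEC, and the receptors lay between no difference and a modest excess in mTEC. By the size rule 4 of 10 members passed in control mice, 1 higher and 3 lower in mTEC, where 27.5% of 15747 tested genes passed (19.0% higher and 8.53% lower). In knockout mice 6 of 10 passed, 2 higher and 4 lower, where 28.8% of 15962 tested genes passed (19.8% higher and 8.96% lower). By their intervals, 3 of the 9 members with at least 1000 reads over the control pair were higher and 6 lower in mTEC. Among all 6663 genes of that depth 27.7% were higher and 53.2% lower. In the knockout pair 3 of 9 were higher and 5 lower, beside 26.6% and 56.6% of 7023 genes. The median log2 ratio of the members was −0.19 in control and −0.20 in knockout mice, beside −0.06 and −0.08 for all tested genes, and the median size of the ratio regardless of sign was 0.78 and 1.03, beside 0.50 and 0.51.

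Jag2 (ENSMUSG00000002799, chromosome 12, 112907819 to 112929776, minus strand, mm10) had 3147 reads in control mTEC and 10398 in control cTEC, 3127 in knockout mTEC and 12004 in knockout cTEC. Both cTEC libraries were far above both mTEC libraries, with log2 ratios of mTEC to cTEC of −1.88 (−1.94 to −1.82) in control and −1.94 (−2.0 to −1.89) in knockout mice. Dll1 (ENSMUSG00000014773, chromosome 17, 15367354 to 15376872, minus strand), a ligand used in cell fate choices in many tissues, had 1038 and 965 reads in control and knockout mTEC and 2663 and 2443 in cTEC. Its log2 ratios of mTEC to cTEC were −1.52 (−1.62 to −1.41) and −1.34 (−1.45 to −1.24).

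Dll4 (ENSMUSG00000027314, chromosome 2, 119325784 to 119335962, plus strand) had 600 and 677 reads in control and knockout mTEC and 1170 and 1696 in cTEC. The cTEC levels lay above the mTEC levels in both genotypes, by 2.17-fold in control and 2.51-fold in knockout mice (log2 ratios −1.12, −1.26 to −0.98, and −1.33, −1.46 to −1.20). The mTEC libraries therefore held Dll4 RNA at 35.2 and 38.5 CPM, against 76.5 and 96.7 CPM in cTEC. Foxn1, the factor on which Dll4 depends, stood at 126 and 124 CPM in mTEC and 172 and 208 CPM in cTEC. The endothelial markers summed to 58.9 and 67.0 CPM in mTEC and 30.1 and 43.4 CPM in cTEC, but the single genes were mixed, 4 of 6 measured in control and 5 of 8 in knockout mice having ratios towards mTEC. Plvap (257 and 59 reads) and Flt1 (304 and 59 reads) were higher in control mTEC, whereas Cldn5 (10 and 49 reads) was higher in control cTEC. Pecam1 stood at 8.45 and 8.51 CPM in the control pair and at 11.8 and 16.3 CPM in the knockout pair. Their part in the Dll4 levels was not tested. An annotated transcript on the opposite strand, Gm14207, overlaps Dll4 and had 160, 194, 465 and 573 reads in the same order of libraries. The sources used here do not state whether counting used strand, and without it the reads of such a pair cannot be told apart.

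Jag1, which signals in many epithelia, hardly differed between the populations. It had 2475 reads in control mTEC and 2444 in control cTEC (log2 ratio −0.14, −0.22 to −0.06), and 2291 and 2353 in the knockout libraries (−0.04, −0.13 to 0.04). The sign of the latter turned to 0.05 with total counts as the scale. Jag1 thus differed from Jag2 in its distribution: the ratio of Jag2 to Jag1 per length was 1.06 and 1.14 in mTEC and 3.56 and 4.27 in cTEC.

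Dll3 (ENSMUSG00000003436, chromosome 7, 28293553 to 28302238, minus strand) was the ligand gene on the mTEC side. It had 231 reads in control mTEC and 41 in control cTEC, 279 in knockout mTEC and 14 in knockout cTEC, so that the knockout cTEC library held the fewest reads of any member. The log2 ratios of mTEC to cTEC were 2.32 (1.85 to 2.85) and 4.27 (3.54 to 5.20). Neuroendocrine cells of several organs are known to express Dll3. Insm1, a neuroendocrine regulator, stood at 194 and 191 CPM in the mTEC libraries, against 8.44 and 9.58 CPM in cTEC. Of the 7 neuroendocrine markers, 5 were past the size rule towards mTEC in each genotype. Chga, a granule gene, was not, at 1265 and 906 CPM in mTEC and 1273 and 1212 in cTEC, and Neurod1 had 0 to 6 reads. The part of such cells in the Dll3 levels was not tested.

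All 3 receptor genes had log2 ratios above 0 towards mTEC in both genotypes. Notch3, a receptor known for its role in vascular smooth muscle and pericytes and in developing thymocytes, had 1252 and 1072 reads in control and knockout mTEC and 585 and 514 in cTEC. Its log2 ratio of 0.94 (0.80 to 1.08) in control mice lay just short of the 2-fold limit and that of 1.06 (0.90 to 1.21) in knockout mice just past it, with intervals that overlap. With total counts as the scale Notch3 passed in control mice too. Fibroblast and pericyte markers summed to 521 and 531 CPM in mTEC and 445 and 433 in cTEC, but the median log2 ratio over the 9 genes was 0.78 in control and 1.15 in knockout mice, with 3 and 5 genes passing towards mTEC and 2 towards cTEC in each. Their part in the Notch3 difference was not tested. Thymocyte markers were lower in mTEC (288 and 345 CPM) than in cTEC (371 and 474).

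Notch1, the receptor through which thymocytes receive the T lineage signal, had 2198 and 2069 reads in mTEC and 1673 and 1583 in cTEC. Its log2 ratios were 0.24 (0.14 to 0.33) and 0.38 (0.29 to 0.48). In control mice 2 of 13 measured thymocyte markers had ratios towards mTEC, beside 9 of 9 myeloid and 4 of 4 B cell markers. The part of such cells in the Notch1 levels was not tested. Notch2, a broadly expressed receptor, had 2703 and 2611 reads in mTEC and 2216 and 2308 in cTEC, the log2 ratios being 0.13 (0.05 to 0.21) and 0.17 (0.09 to 0.26). Neither reached 2-fold.

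Both target genes had lower levels in mTEC, as had most genes with at least 1000 reads over the pair. Hes1 had 1857 and 1684 reads in control and knockout mTEC and 1974 and 2146 in cTEC. The mTEC to cTEC log2 ratios were −0.25 (−0.34 to −0.15) and −0.35 (−0.45 to −0.26). Hey1 (ENSMUSG00000040289, chromosome 3, 8663359 to 8667256, minus strand) had 1249 and 1255 reads in mTEC and 1728 and 2505 in cTEC. Its log2 ratio was −0.63 (−0.73 to −0.52) in control and −1.0 (−1.10 to −0.90) in knockout mice. The latter sat on the limit of the size rule and did not pass with DESeq2 size factors, with total counts or with a prior count of 2.

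**Figure D3:**
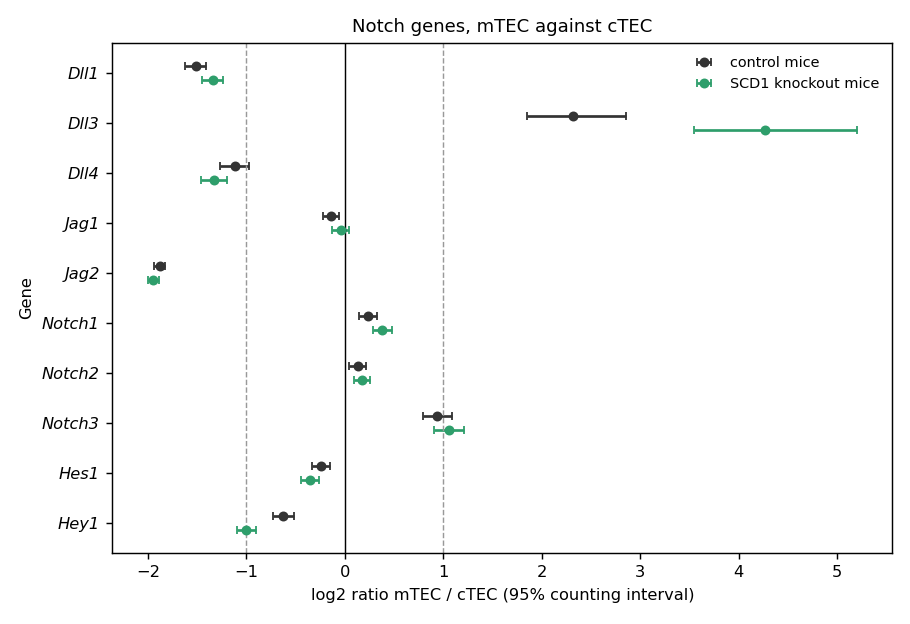
Log2 ratio of mTEC to cTEC for each Notch gene in control mice (black) and SCD1 knockout mice (green), each from 1 library per population. Bars are 95% counting intervals and dashed lines mark 2-fold. Jag2, Dll1 and Dll4 lie below −1 in both genotypes, Dll3 lies above 2 and the receptors lie between 0.13 and 1.06.

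The genotype comparison asked which Notch genes differ in epithelium of SCD1 knockout mice. In mTEC 0 of 10 members passed the size rule, where 0.935% of 16466 tested genes passed. Smaller differences were one-sided: 8 members were lower in the knockout library, and the intervals of 6 of them (Dll1, Jag1, Notch1, Notch2, Notch3 and Hes1) excluded equality. Of the 9 members with at least 1000 reads over the mTEC pair, these 6 lay below and 0 above equality by their intervals, while among all 6736 genes of that depth 14.5% did so below and 14.2% above. The median log2 ratio of the members was −0.11, beside 0.01 for all tested genes. Marker levels differed in the same pair of libraries: cTEC markers were higher in knockout mTEC for 9 of 9 genes (median log2 ratio 0.29), and thymocyte markers for 12 of 13 (0.28). Their part in the members' differences was not tested.

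In cTEC 1 of 10 members, Dll3, passed the size rule, where 1.20% of 14445 tested genes passed. By their intervals, Dll4 and Hey1 were higher in the knockout library, and Dll1, Jag1, Notch1, Notch2 and Notch3 lower. These are 2 and 5 of the 9 members with at least 1000 reads over the pair, where 21.7% of 6737 genes of that depth lay above and 17.4% below equality. The median log2 ratio of the members was −0.20, beside 0.01 for all tested genes. These shares also show that many genes differ between 2 libraries by more than counting error.

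Among the ligands, Dll3 went from 41 reads in control to 14 in knockout cTEC, or from 2.68 CPM (1.93 to 3.64) to 0.799 CPM (0.437 to 1.34), 3.28-fold lower (log2 ratio −1.71, −2.74 to −0.84). In mTEC it went from 231 to 279 reads (13.6 and 15.9 CPM, log2 ratio 0.23, −0.03 to 0.49). With a minimum of 200 reads Dll3 was not measured in the cTEC pair, and 0 members passed. Beside it, 8 of 9 mTEC markers had a lower level in knockout than in control cTEC, with a median log2 ratio of −0.22, and the 5 measured neuroendocrine markers had a median of −0.15. The part of medullary cells among the sorted cTEC in this difference was not tested.

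Dll4 was at 76.5 CPM (72.2 to 81.1) in control and 96.7 CPM (92.2 to 101) in knockout cTEC, a log2 ratio of 0.34 (0.23 to 0.45). In mTEC its ratio was 0.13 (−0.03 to 0.29). Cortical markers differed in the same direction, 9 of 9 being higher in knockout cTEC with a median log2 ratio of 0.33, and Foxn1 went from 2628 to 3639 reads there. Of 6 measured endothelial markers 5 were higher there too (median log2 ratio 0.46), while Flt1 went from 3.86 to 3.42 CPM. The summed level of all 11 endothelial markers went from 30.1 to 43.4 CPM in cTEC, of which Pecam1 went from 8.51 to 16.3 CPM. Thymocyte markers went from 371 to 474 CPM. In the mTEC pair, endothelial markers were higher in the knockout library for 7 of 8 measured genes (median log2 ratio 0.35). Cortical markers were higher there for 9 of 9 (0.29) and thymocyte markers for 12 of 13 (0.28). The part of any of these in the Dll4 difference was not tested.

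Dll1 lay the other way from Dll4. It went from 174 to 139 CPM in cTEC (−0.32, −0.40 to −0.24) and from 60.9 to 54.9 CPM in mTEC (−0.15, −0.28 to −0.02). The ratio of Dll1 to Dll4 RNA per length was 2.08 in control and 1.32 in knockout cTEC, and 1.58 and 1.30 in mTEC. Jag1 was also lower in both knockout libraries, with log2 ratios of −0.16 (−0.24 to −0.07) in mTEC and −0.25 (−0.33 to −0.17) in cTEC. For Jag2, the deepest-read member, the ratios were −0.05 (−0.13 to 0.02) in mTEC and 0.01 (−0.03 to 0.05) in cTEC, and counting error between these libraries allows no more than these bounds.

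The receptors were lower in the knockout library of both populations, each with an interval that excludes equality. Notch3 had the largest difference of the 3, from 73.5 to 61.0 CPM in mTEC (log2 ratio −0.27, −0.39 to −0.15) and from 38.3 to 29.3 CPM in cTEC (−0.38, −0.56 to −0.21). Notch1 went from 129 to 118 CPM in mTEC (−0.13, −0.22 to −0.04) and from 109 to 90.3 CPM in cTEC (−0.28, −0.38 to −0.18). Notch2 went from 159 to 149 CPM in mTEC (−0.09, −0.17 to −0.02) and from 145 to 132 CPM in cTEC (−0.14, −0.22 to −0.05). Beside the receptors, whose levels were higher in mTEC than in cTEC, mTEC markers were lower in knockout cTEC for 8 of 9 genes (median log2 ratio −0.22) and in knockout mTEC for 5 of 9. Cortical markers were higher in the knockout library for 9 of 9 genes in mTEC (median 0.29) and in cTEC (0.33). Thymocyte markers were higher for 12 of 13 measured genes in knockout mTEC and 13 of 13 in knockout cTEC. Fibroblast and pericyte markers were higher for 7 of 9 genes in knockout mTEC (median 0.07) and for 4 of 8 measured in knockout cTEC (−0.01). The part of these shifts in the receptor differences was not tested.

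The targets did not move together. Hes1 stood at 109 and 95.8 CPM in control and knockout mTEC (−0.19, −0.28 to −0.09), and 129 and 122 CPM in cTEC (−0.08, −0.17 to 0.01). Hey1 stood at 73.3 and 71.4 CPM in mTEC (−0.04, −0.15 to 0.08), and 113 and 143 CPM in cTEC (0.34, 0.25 to 0.43). Per length, Hes1 RNA exceeded that of Hey1 1.83-fold in control and 1.37-fold in knockout cTEC. The Hey1 ratio in cTEC equalled that of Dll4 within counting error. The same endothelial, cortical and thymocyte marker values stand beside it, higher in the knockout library of mTEC as well as of cTEC. Their part in the Hey1 levels was not tested.

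**Figure D4:**
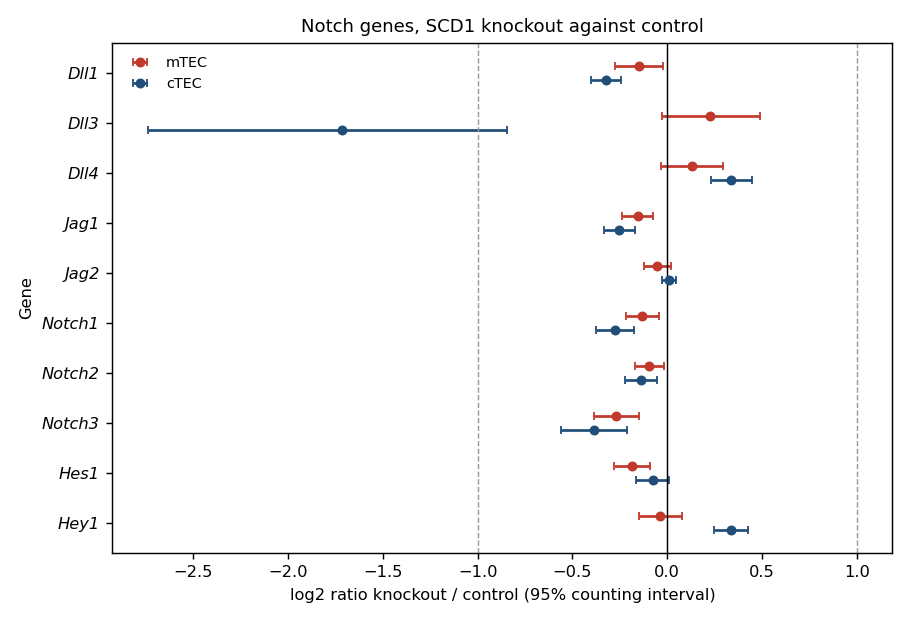
Log2 ratio of SCD1 knockout to control for each Notch gene in mTEC (red) and cTEC (blue), from 1 library per group, with 95% counting intervals and dashed lines at 2-fold. The 3 receptors lie left of 0 in both populations, Dll4 and Hey1 lie at 0.34 in cTEC, and Dll3 in cTEC (−1.71) is the member past the 2-fold line.

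A list of 64 further pathway genes, all found in the table, covers the other steps of the route. Of these, 14 of 60 measured genes (23.3%) passed the size rule between mTEC and cTEC in control mice, 9 higher and 5 lower in mTEC, and 15 of 59 (25.4%) in knockout mice, 10 higher and 5 lower, so the share was near that of all tested genes. In the ligand-like group, Dlk1 had 450 reads in control mTEC and 4 in control cTEC (log2 ratio 6.49, 5.29 to 8.54), and its relative Dlk2 lay the other way with 153 and 901 reads (−2.71, −2.97 to −2.47). Dner, a neuronal ligand-like gene, had 71 reads in control mTEC and 0 in control cTEC, at least 21.2-fold higher against a floor of 3 reads per library, and 46 and 2 in the knockout libraries. Notch4, the endothelial receptor, had 100 and 29 reads (1.61, 1.02 to 2.28) in the control pair and 107 and 33 in the knockout pair.

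Of 6 receptor glycosylation genes 2 passed in control mice, both higher in mTEC, while the median log2 ratio of the group was −0.0073. Mfng, a Fringe glycosyltransferase that alters which ligands a receptor prefers, had 315 reads in control mTEC and 41 in control cTEC (2.77, 2.31 to 3.29). Lfng had 99 and 42 (1.07, 0.55 to 1.64), while Rfng had 645 and 1062 reads in the control pair. Rfng passed in the knockout pair (629 and 1257 reads, −1.0, −1.14 to −0.86), but not with DESeq2 size factors, total counts or a prior count of 2. Eogt (984 and 1436 reads) and Pofut1 (612 and 695 reads) also had ratios towards cTEC in control mice without passing, and Poglut1 (1497 and 1071 reads) towards mTEC. Of the E3 ligases that drive ligand endocytosis, Neurl1a (206 and 47 reads) and Neurl1b (203 and 44 reads) were 3.90-fold and 4.10-fold higher in control mTEC, while Mib1 (1416 and 1463 reads, −0.20) and Mib2 (1042 and 1396 reads, −0.58) had ratios towards cTEC and did not pass. Of 10 cleavage genes, Aph1b (87 and 191 reads) and Aph1c (30 and 60 reads) passed as lower in control mTEC. Both encode near-identical subunits of γ-secretase, so their reads may be shared between them and the values are uncertain.

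Downstream, 0 of 11 corepressor genes and 1 of 9 genes of the nuclear complex passed in control mice, the latter being Rbpjl (23 and 60 reads, −1.52, −2.30 to −0.83). Rbpj itself, the DNA-binding partner of Notch, had 1449 and 741 reads in control mTEC and cTEC and did not pass. Among negative regulators, Nrarp, a feedback inhibitor that Notch induces, was 3.58-fold higher in control mTEC (185 and 46 reads), and Dtx4, a Deltex ubiquitin ligase, 4.91-fold lower (174 and 768 reads). Nrarp was thus on the mTEC side, unlike Hes1 and Hey1. Of the other Hes and Hey genes, Heyl (1091 and 536 reads, 1.02, 0.87 to 1.17) and Hes7 (103 and 44 reads, 1.21, 0.70 to 1.77) passed in knockout mice. Heyl did not pass with upper-quartile factors. In control mice 0 of 4 measured passed. There Heyl (0.77, 0.61 to 0.93), Hes7 (0.67, 0.15 to 1.23) and Hes6 (0.51, 0.43 to 0.59) had ratios towards mTEC. Hey2 lay towards cTEC (−0.50, −0.74 to −0.26). Il2ra, a Notch target in T cells that also marks other lymphoid cells, had 935 and 303 reads in the control pair (1.47, 1.28 to 1.66), whereas Ptcra, which marks immature T cells, had 10 to 22 reads in each library.

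Between genotypes 0 of 60 measured pathway genes passed in mTEC and 0 of 58 in cTEC. Their median log2 ratios were 0.01 and −0.01, beside 0.01 for all tested genes in both. In mTEC the intervals lying farthest from equality were those of Eogt, a glycosyltransferase gene (984 and 844 reads, −0.27, −0.40 to −0.13), Dner (71 and 46 reads, −0.66, −1.24 to −0.11), the corepressor gene Spen (1068 and 931 reads, −0.24, −0.37 to −0.11) and Heyl (896 and 1091 reads, 0.24, 0.11 to 0.37). In cTEC they were those of Aph1c (60 and 120 reads, 0.80, 0.34 to 1.27), the coactivator genes Crebbp (−0.27, −0.37 to −0.18) and Maml1 (−0.32, −0.46 to −0.18) and the receptor protease gene Adam17 (896 and 826 reads, −0.32, −0.45 to −0.18).

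**Figure D5:**
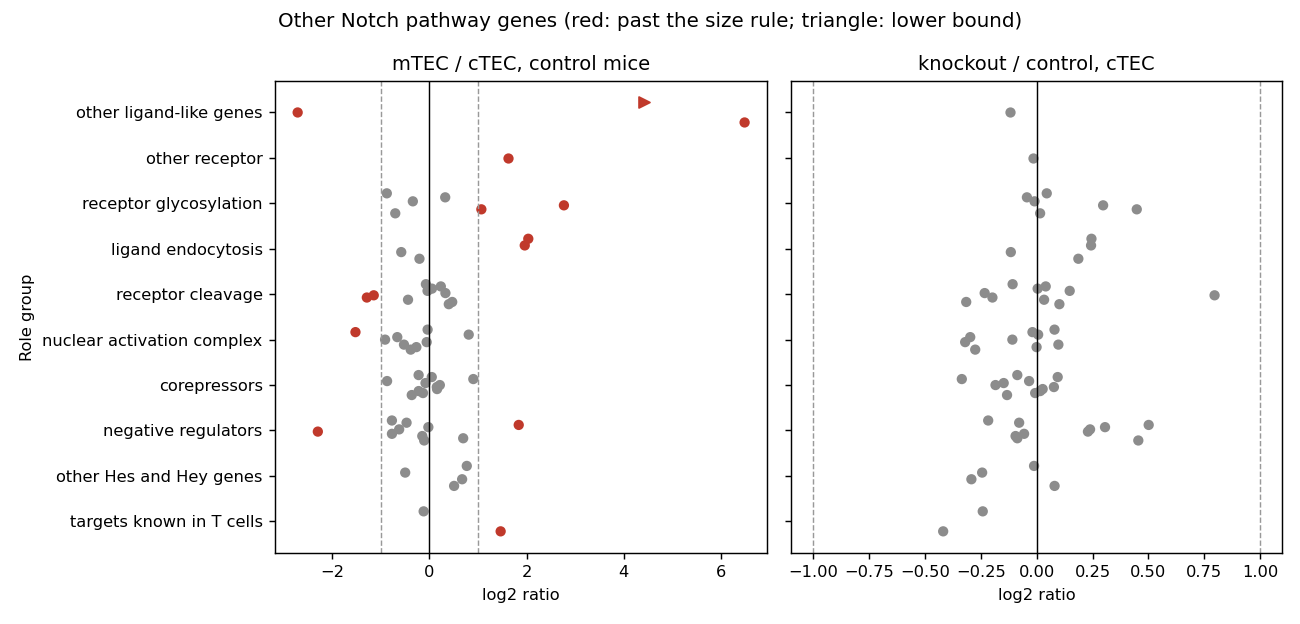
Log2 ratios of the other Notch pathway genes with at least 50 reads over the pair, by role group, for mTEC against cTEC in control mice (left) and knockout against control in cTEC (right). Each point is a gene, red points passed the size rule, dashed lines mark 2-fold, and the triangle is the lower bound for Dner. Of 60 genes 14 are red on the left and of 58 genes 0 on the right.

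The profile of each member over the 4 libraries was set beside those of 13067 protein-coding genes with at least 200 reads, by the Euclidean distance between centred log2 CPM values. With 4 points, of which each is a library, small distances are common, and they are given as a description. Nearest to Dll4 were Apba2 (distance 0.058), Zfp420 (0.075) and Ctsa (0.085), and nearest to Hey1 were Rpp25l (0.051), Rnf13 (0.051) and Hivep2 (0.056). Dll1 was closest to Klhl29 (0.069), Ifit3 (0.088) and Rgma (0.10), and Jag2 to Sesn1 (0.045), Aox1 (0.053) and Mocos (0.056). For Jag1 the nearest were Myc (0.015), Dolk (0.019) and Pcdhga5 (0.033), with Myc at 2571 and 2364 reads in mTEC and 2502 and 2428 in cTEC. Dll3 had no profile as near, the closest being Ank2 (0.19), Kcnj11 (0.23) and Stra8 (0.26), each with 21 or fewer reads per cTEC library.

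Notch1 was nearest to Sncaip (0.033), Slc43a1 (0.043) and Pcdhgc3 (0.045), and Notch2 to Rfx5 (0.018) and Scn9a (0.021). Nearest to Notch3 were Col5a2, a fibrillar collagen gene (0.049), the corepressor gene Tle2 (0.065) and Sdsl (0.080). Nearest to Hes1 were Eva1c (0.018), Tle4 (0.028) and Acer3 (0.029). Tle2, Tle4 and Myc are also on the pathway list. Other gene models overlapping members held few reads beside them: A930024N18Rik, opposite Dll1, had 30 to 84 per library, and those at Jag2, Notch1, Notch2 and Notch3 had 0 to 19.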

How the data were processed

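The deposited table holds the authors' raw gene counts for 4 libraries, with coordinates and a gene length in bases. Per the submitters' processing notes, CASAVA, HISAT2 2.0.5 and featureCounts 1.5.0-p3 were used with mm10. The sources used here do not state the annotation release, strand setting or handling of multiply mapped reads.

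Library sizes were scaled by TMM (edgeR 4.0.16, R 4.3.3), and DESeq2 1.42.0 gave alternative size factors. Log2 ratios used a prior count of 0.5 reads per library, with exact conditional binomial (Clopper-Pearson) 95% intervals. CPM has exact Poisson 95% intervals. Since PCR copies of a molecule are counted separately, the intervals and floors describe counting error alone. Python 3.11.15, pandas 2.3.3 and scipy 1.17.1 were used, and the ratio script was tested on simulated data. The size rule (50 reads over the pair, 2-fold, interval excluding equality) was applied to all genes.

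The members and lists were chosen with earlier results of these data known. Named beyond the members were pathway genes passing the size rule (at most 4 per role group and comparison), the 4 with the genotype interval farthest from equality, the most abundant markers, and the 3 nearest profiles per member; some genes under these rules are not reported here. Foxn1, Insm1, Cldn5, Pofut1, Poglut1, Mib1, Mib2, Pecam1, Neurod1 and some other single list genes were added after their values were seen, as was the background of genes with at least 1000 reads. Lists of 8 general epithelial, 5 ciliated and 6 tuft cell genes were also summed, at 5934 to 9863, 89.9 to 99.5 and 63.4 to 147 CPM.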

Additional observations from a re-analysis of the deposited data

Results flagged for a closer look

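For 2 members the genotype ratio had opposite signs in the 2 populations and the counting interval of the difference excluded 0. For Dll3, the log2 ratio of knockout to control in mTEC minus that in cTEC was 1.94 (1.04 to 2.84), from 231 and 279 reads in mTEC and 41 and 14 in cTEC. For Hey1 it was −0.37 (−0.52 to −0.23), from 1249 and 1255 reads in mTEC and 1728 and 2505 in cTEC. In mTEC the interval of the ratio itself included equality for Dll3 (0.23, −0.03 to 0.49) and Hey1 (−0.04, −0.15 to 0.08), so its sign there is uncertain. The interval of the difference also excluded 0 for Dll1, Dll4 and Notch1, whose ratios had the same sign in both populations. For Dll1 and Notch1 this depended on the scaling. With upper-quartile factors their differences went from 0.17 to 0.15 and from 0.15 to 0.12, and intervals of the same width then include 0. With 1 library per group none of these differences was tested.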

How the results depend on the processing

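Each count of passing genes was recomputed with other scalings (DESeq2 size factors, total counts, upper quartile), no minimum or a minimum of 200 reads, a prior count of 2 and a 1.5-fold threshold. Of 56 such counts 50 stayed within 1.5 times. With a minimum of 200 reads, 0 members passed between genotypes in cTEC, since Dll3 has too few reads, and 9 pathway genes passed between populations in control mice. With a 1.5-fold threshold, 27 and 26 pathway genes passed between populations in control and knockout mice, and 1 between genotypes in mTEC (Dner) and 1 in cTEC (Aph1c). Notch3 and Hey1 lie near 2-fold: with total counts Notch3 passed in both genotypes, and Hey1 in knockout mice did not pass with DESeq2 size factors, total counts or a prior count of 2. Of 160 recomputed member ratios 7 left the counting interval, each with total counts, and the sign changed for Jag1 between populations in knockout mice (0.05). The 30 recomputed differences of the genotype ratio stayed within their intervals, but with upper-quartile factors the intervals for Dll1 and Notch1 no longer exclude 0. A change of scaling moves the difference of every member by the same amount, so these are not 30 separate checks. No replicate could be left out. Depth limits Dll3 in cTEC, with 41 and 14 reads.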
